A study of Homo sapiens with 12 samples.

Results

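The lysyl oxidase family has 5 genes in human, LOX, LOXL1, LOXL2, LOXL3 and LOXL4, and all 5 were found by symbol among the 63677 Ensembl genes counted in 12 RNA-seq libraries. All 5 also had enough reads to be tested, as did 21325 genes in all. LOXL2 was chosen by its measured log2 fold changes after lncRNA knock-down, a fall noted to differ between cell lines, so its knock-down values are given as a description without a test. The other 4 members were taken along as its relatives and were tested.

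The libraries came from 3 breast cancer cell lines that the study used as models of the basal-like subtype, MDA-MB-468, SUM149PT and HCC38. In each line, cells were transfected at 50 nM either with LNA NS, a non-targeting locked nucleic acid (LNA) oligonucleotide, or with LNA1 and LNA2 together to knock down the lncRNA ENSG00000258910 (RP19 in the labels), and RNA was taken 24 h later. The medium was replaced 6 h after transfection in both arms, and no arm of untransfected cells was analysed here. Each of the 6 groups of line and treatment held 2 libraries, with 32187835 to 56191152 reads counted in genes per library. Each line is an established culture grown without the stroma of a tumor. Whether the pair of libraries in a group was grown and transfected separately is not stated. The p-values therefore measure the spread between these libraries, which may be technical. The lncRNA was lower in every knock-down library than in any LNA NS library of its line, with mean levels going from 0.703 to 0.0233 CPM (counts per 1000000 reads in genes, TMM-normalized) in MDA-MB-468, from 10.9 to 0.496 in SUM149PT and from 14.8 to 1.76 in HCC38.

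All 3 lines expressed the epithelial markers EPCAM, CDH1, KRT8, KRT18 and KRT19. Of the basal keratins, KRT14, KRT17 and KRT6A were at 0.479, 0.551 and 1.67 CPM in the LNA NS libraries of HCC38. In those of MDA-MB-468 they were at 16.6, 166 and 39.8 CPM, so HCC38 carried little of this part of the basal program. The other basal markers, KRT5, KRT6B and EGFR, were at 61.1, 7.72 and 159 CPM in HCC38, against 2470, 47.3 and 5556 CPM in MDA-MB-468. The fibroblast marker list, of interest because fibroblasts are the main makers of LOX and fibrillar collagen in tissue, had a summed level between 19.0 and 21.3 CPM for LNA NS in MDA-MB-468, and between 21.8 and 23.2 CPM after knock-down. In SUM149PT these ranges were 104 to 105 and 87.4 to 88.4 CPM, and HCC38 had 109 to 128 and 129 to 136 CPM. Most of each sum was COL1A1, while LUM was at or near 0 in each group. The part of these markers in the results was not tested. In bulk RNA, fewer cells of a kind and less RNA per cell cannot be told apart.

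Lysyl oxidases are copper-dependent amine oxidases that convert lysine residues of collagen and elastin to reactive aldehydes, which then form the covalent cross-links that stiffen the extracellular matrix. LOX and LOXL1 are secreted as proenzymes and are cut to their active form, LOX chiefly by BMP1, whereas LOXL2, LOXL3 and LOXL4 carry scavenger receptor cysteine-rich domains instead of a propeptide. In breast cancer LOX is known as a hypoxia-induced gene of matrix stiffening and metastasis, and LOXL2 is known for its links to epithelial-mesenchymal transition and to basal-like tumors.

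The genes lie on 5 chromosomes. In GRCh37, LOX (ENSG00000113083) spans chr5:121398890-121414108 on the minus strand, LOXL1 (ENSG00000129038) chr15:74218330-74244478 on the plus strand, LOXL2 (ENSG00000134013) chr8:23154410-23282841 on the minus strand, LOXL3 (ENSG00000115318) chr2:74759385-74782817 on the minus strand and LOXL4 (ENSG00000138131) chr10:100007447-100027951 on the minus strand. LOXL2 is by far the longest gene of the family, with a span of 128 kb against 15.2 to 26.1 kb for the others. Its exons together hold 5.985 kb, close to the 5.596 kb of LOX and above the 3.597 to 4.519 kb of the rest.

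The first question was how much of each enzyme gene the lines expressed with LNA NS. On the CPM per kb of exon scale, which allows levels of different genes to be compared, MDA-MB-468 expressed LOXL2 at 38.6 ± 1.62 (mean ± SD, n = 2 libraries here and below) and little else. LOXL3 was at 1.76 ± 0.00576, LOX at 0.641 ± 0.0265, LOXL1 at 0.126 ± 0.00283 and LOXL4 at 0.0303 ± 0.0219 in that line. LOXL2 thus made up 93.8% ± 0.253 of the family's summed level in MDA-MB-468.

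SUM149PT had a mixed profile. LOXL1 stood at 18.7 ± 0.113 and LOXL2 at 17.4 ± 1.13 CPM per kb of exon, a gap close to the spread of LOXL2, followed by LOXL3 at 5.63 ± 0.0375, LOX at 2.94 ± 0.0732 and LOXL4 at 0.137 ± 0.0273. The share of LOXL2 in the sum was 38.9% ± 1.39 and that of LOXL1 41.7% ± 0.964.

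HCC38 had LOXL2 first again, at 12.3 ± 0.844 CPM per kb of exon and 58.4% ± 2.83 of the sum. LOXL1 followed at 3.68 ± 0.498, LOXL3 at 2.67 ± 0.0291, LOX at 2.10 ± 0.0529 and LOXL4 at 0.300 ± 0.00548. LOXL4 was the lowest member in each of the 3 lines.

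**Figure D1:**
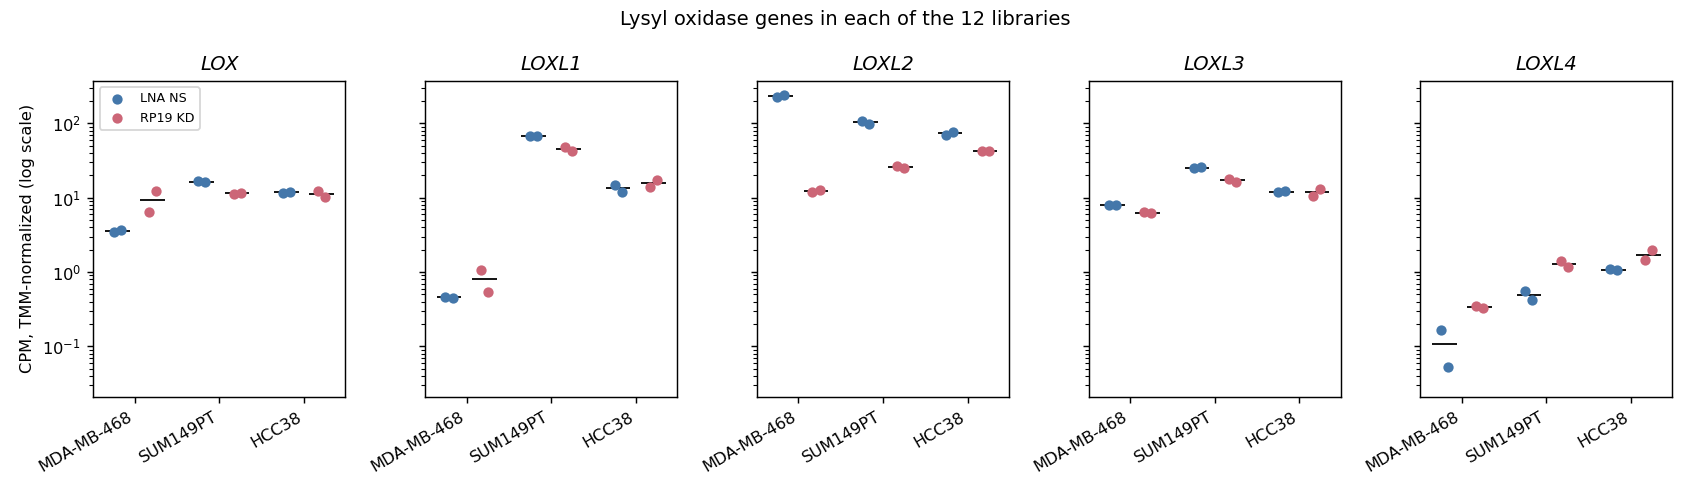
Level of each family gene in CPM (TMM-normalized, log axis) by cell line, with blue points for LNA NS libraries, red points for knock-down libraries (RP19 KD) and a black bar for the mean of the 2 libraries. LOXL2 goes from 224 and 238 to 12.0 and 12.7 CPM in MDA-MB-468, whereas LOX and LOXL4 rise there.

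Each of the 4 members other than LOXL2 differed between lines in the LNA NS libraries by more than the replicate spread in all 3 pairings of lines. These 12 comparisons were read from one edgeR quasi-likelihood fit with Benjamini-Hochberg adjustment over all tested genes, at an adjusted p under 0.1, and they use the same LNA NS libraries as the knock-down comparisons. LOXL2 was chosen on values that draw on these libraries, so its levels are given without a test. Such differences were common among all genes, of which 71.4% passed between MDA-MB-468 and HCC38, 69.6% between SUM149PT and HCC38 and 68.5% between MDA-MB-468 and SUM149PT.

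LOXL1 showed the widest gap within the family. It was at 0.466 and 0.452 CPM in MDA-MB-468, 68.2 and 67.6 CPM in SUM149PT and 14.7 and 12.1 CPM in HCC38, so that MDA-MB-468 was 147-fold below SUM149PT (log2 difference −7.20, standard error (SE) 0.236, edgeR adjusted p = 3.9e-13). LOXL2 ran in another order, highest in MDA-MB-468, then SUM149PT, then HCC38. Its log2 difference was 1.15 between MDA-MB-468 and SUM149PT and 0.50 between SUM149PT and HCC38.

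LOX and LOXL3 were both lowest in MDA-MB-468 and highest in SUM149PT. The log2 difference between MDA-MB-468 and SUM149PT was −2.20 for LOX (edgeR adjusted p = 4.3e-07) and −1.68 for LOXL3 (adjusted p = 1.6e-08). For LOX the step between SUM149PT and HCC38 was small, at a log2 difference of 0.48 (SE 0.206, edgeR adjusted p = 0.0509). The call was lost without SUM149PT LNA NS replicate 1 or either HCC38 LNA NS library, where the log2 difference was between 0.46 and 0.52. LOXL4 was highest in HCC38, where its level was 2.16-fold above SUM149PT (log2 difference of SUM149PT against HCC38 −1.11, edgeR adjusted p = 0.0178), a call lost without SUM149PT LNA NS replicate 2 (adjusted p = 0.109).

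After knock-down of the lncRNA the summed family level was lower in each line, and the difference in LOXL2 alone exceeded that of the sum in MDA-MB-468 and HCC38 and was the larger part of it in SUM149PT. In MDA-MB-468 the sum went from 40.0 and 42.3 to 4.95 and 5.90 CPM per kb of exon, with no overlap between the treatments. In SUM149PT it went from 45.7 and 43.9 to 23.8 and 22, and in HCC38 from 20.8 and 21.4 to 15.8 and 17.2. Because the sum holds LOXL2, which was picked for this contrast, it is a description and was not tested.

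Without LOXL2 the sum differed in direction between MDA-MB-468 and SUM149PT. The remaining 4 genes summed to 2.56 in both LNA NS libraries of MDA-MB-468 and to 2.94 and 3.78 CPM per kb of exon after knock-down, a higher level. The same sum was lower after knock-down in SUM149PT, where it went from 27.5 and 27.2 to 19.4 and 17.7. In HCC38 it was 9.05 and 8.46 for LNA NS, then 8.80 and 10.1 after knock-down, with overlapping libraries.

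The makeup of the family shifted with it. In MDA-MB-468 the share of LOXL2 went from 93.8% to 38.2% ± 3.24, that of LOX from 1.56% to 30% ± 9.53 and that of LOXL3 from 4.28% to 25.8% ± 3.65. After knock-down, LOXL2 at 2.06 ± 0.0798 and LOX at 1.66 ± 0.718 CPM per kb of exon were not separated in that line beyond their spread. In SUM149PT LOXL2 went to 18.9% ± 0.535 of the sum and LOXL1 to 54.1% ± 1.07. In HCC38 LOXL2 remained the largest contributor at 42.9% ± 2.03. These shares depend on LOXL2, the gene chosen for its fall, so another share can rise while its gene is lower. LOXL3 in MDA-MB-468 went from 1.76 to 1.39 CPM per kb of exon, and LOXL1 in SUM149PT from 18.7 to 12.4.

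**Figure D2:**
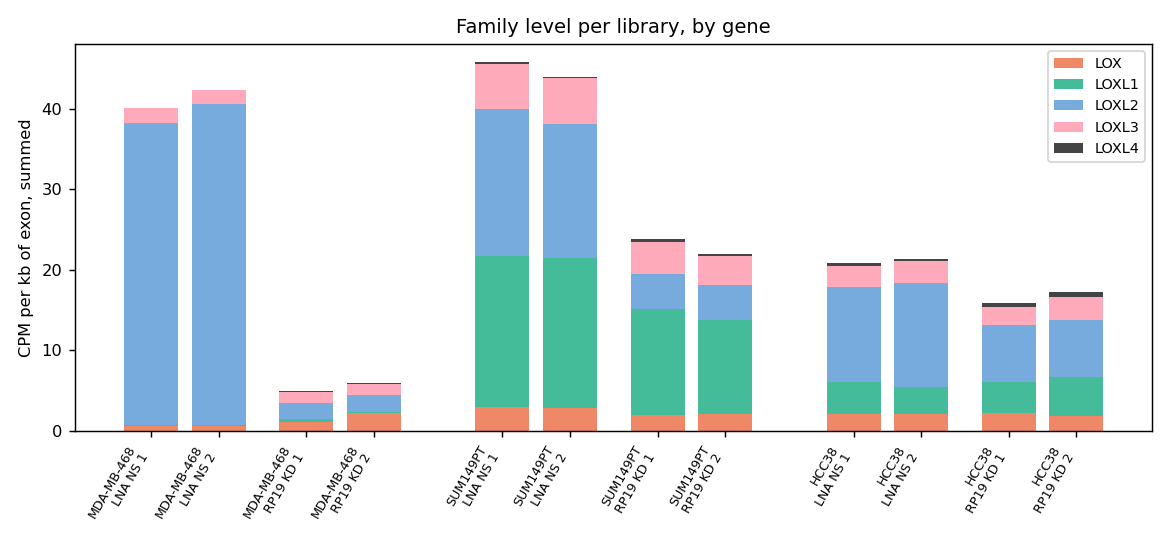
Summed level of the 5 genes in each library, in CPM per kb of exon on a linear axis from 0, with 1 bar per library stacked by gene. The blue LOXL2 block fills 93.8% of the mean for LNA NS in MDA-MB-468 and 38.2% after knock-down, and the green LOXL1 block is widest in SUM149PT.

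LOXL2 encodes an oxidase that cross-links basement membrane collagen IV and has also been found in the nucleus. In MDA-MB-468 it was at 224 and 238 CPM with LNA NS, from 8178 and 8957 counts, and at 12.0 and 12.7 CPM after knock-down, from 522 and 539 counts. The knock-down libraries were 18.7-fold lower, a log2 fold change of −4.23.

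In SUM149PT LOXL2 was at 109 and 99.5 CPM with LNA NS and at 26.5 and 25.4 CPM after knock-down. That is 4.02-fold lower (log2 fold change −2.01). In HCC38 LOXL2 was at 70.2 and 77.3 CPM with LNA NS and at 41.9 and 42.6 CPM after knock-down. There it was 1.74-fold lower (log2 fold change −0.80). The treatments did not overlap in any line, as held for 69.8% (MDA-MB-468), 63.1% (SUM149PT) and 61.5% (HCC38) of all genes. The sizes of these differences stood in the same order as the LNA NS levels, from which they are in part computed. After knock-down that order was turned around, with HCC38 highest and MDA-MB-468 lowest. The mean log2 fold change over the 3 lines was −2.35.

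Against all genes, 82 of the 21325 had a log2 fold change at or below that of LOXL2 (MDA-MB-468), 336 (SUM149PT) and 2036 (HCC38). Genes with a long span had lower fold changes as a group in these data. The 3282 tested genes of over 100 kb had a median log2 fold change of −0.48 (MDA-MB-468), −0.11 (SUM149PT) and −0.34 (HCC38), against 0.00, 0.03 and 0.01 over all genes. LOXL2 is 1 of these long genes, at the 88.3 percentile of span. Its values of −4.23, −2.01 and −0.80 lay below those medians in the 3 lines, but it was chosen for its fall. Of the genes at or below LOXL2, 17 of 82, 83 of 336 and 824 of 2036 spanned over 100 kb in the 3 lines in that order. The part of gene length in the LOXL2 values was not tested.

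LOXL2 is overlapped by other genes. On the opposite strand lies LOXL2-AS1, an antisense lncRNA at chr8:23193684-23223638 in GRCh37, which had 22 and 39 counts with LNA NS and 6 and 3 counts after knock-down in MDA-MB-468 (log2 fold change −2.94, edgeR adjusted p = 7.2e-04). In SUM149PT it had 34 and 13 counts and then 19 and 15, and in HCC38 31 and 22 counts and then 22 and 19, and neither line passed the test (adjusted p = 0.274 and 0.690 from edgeR). No source used here says whether the counting took account of strand, so reads of LOXL2 and LOXL2-AS1 cannot be told apart with certainty. ENTPD4, which overlaps LOXL2 on the same strand and encodes a nucleotide-hydrolysing enzyme of the Golgi, had log2 fold changes of 0.09, 0.30 and −0.13 in MDA-MB-468, SUM149PT and HCC38 and rose in SUM149PT (edgeR adjusted p = 0.0253).

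No family gene held a site for either 16-nt LNA with 0 or 1 mismatch, counting the whole gene on its transcribed strand. The longest perfect match in LOXL2 was 11 nt, to LNA2, a length found in 22.7% of the 20686 tested genes with an annotation. LOX had matches of 10 nt to each LNA and LOXL1 one of 10 nt to LNA2, and LOXL3 and LOXL4 had none of that length. The part of such matches in the values was not tested.

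**Figure D3:**
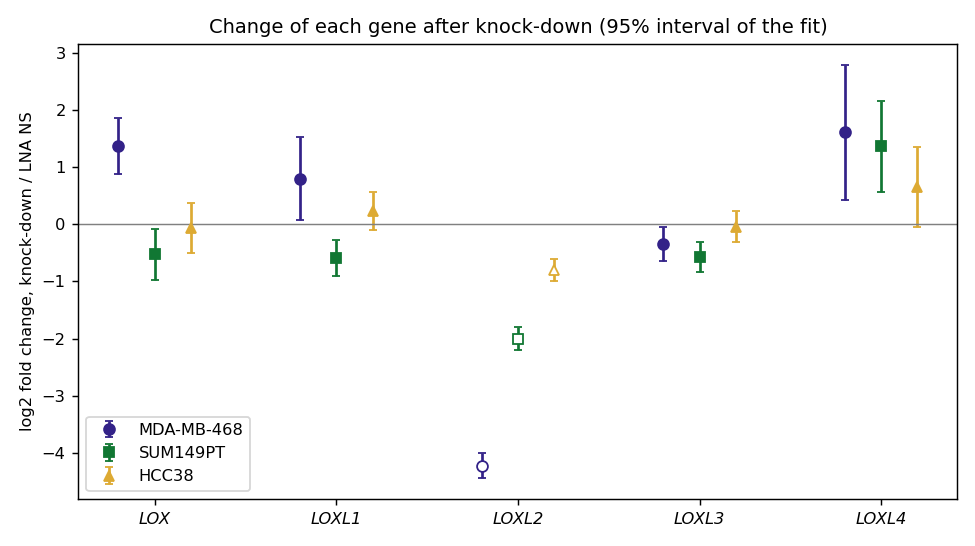
Log2 fold change of knock-down against LNA NS for each gene in MDA-MB-468 (circles), SUM149PT (squares) and HCC38 (triangles), with bars for the 95% interval of the edgeR fit. Open symbols mark LOXL2, shown without a test, at −4.23, −2.01 and −0.80. The LOXL2 bars take no account of its having been chosen for this contrast. LOX and LOXL1 lie above 0 in MDA-MB-468 and below 0 in SUM149PT.

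Among the 4 tested members, knock-down in MDA-MB-468 was followed by a rise of 3, LOX, LOXL1 and LOXL4, and a fall of LOXL3, where 50.6% of all genes passed (24.9% higher and 25.7% lower). In SUM149PT LOXL4 rose and LOX, LOXL1 and LOXL3 fell, where 38% of all genes passed (20% higher and 18% lower). In HCC38 none of the 4 passed in edgeR's quasi-likelihood test, where 34% of all genes did. At an unadjusted p under 0.05 none passed in HCC38 either, and DESeq2 called 0 as well, whereas upper-quartile scaling called 2 (LOXL1 and LOXL4) and a fit of this line alone called 1 (LOXL4). The count in MDA-MB-468 was 2 without LNA NS replicate 1 or without knock-down replicate 1 and 1 without LNA NS replicate 2.

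LOX, the founding member, went from 3.48 and 3.69 CPM to 6.44 and 12.1 CPM in MDA-MB-468. Both knock-down libraries were above both LNA NS libraries, as held for 14888 of the 21325 genes in one direction or the other (69.8%), and the knock-down libraries differed widely from each other. The log2 fold change was 1.37 (SE 0.229, edgeR quasi-likelihood adjusted p = 1.4e-04), and it was 0.84 without knock-down replicate 2 and 1.74 without knock-down replicate 1, still past the test.

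In SUM149PT LOX went the other way, from 16.7 and 16.2 CPM to 11.2 and 11.7 CPM, without overlap (63.1% of all genes did not overlap in this line). The log2 fold change of −0.53 passed narrowly (SE 0.207, edgeR adjusted p = 0.0661). In fits without 1 library of this line, which leave 1 library in a group, the call was lost each time. The log2 fold change then stayed between −0.56 and −0.50. In HCC38 the libraries overlapped, at 11.6 and 12.0 CPM with LNA NS and 12.3 and 10.2 CPM after knock-down (61.5% of all genes did not overlap there), and the log2 fold change was −0.06 with a 95% interval of −0.50 to 0.38.

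The effect on LOX differed between lines (adjusted p = 0.00142 from edgeR's F test of the interaction, a test that 32.4% of all genes passed). Between single pairs of lines 15.2% of all genes differed for MDA-MB-468 and SUM149PT, 26.8% for MDA-MB-468 and HCC38 and 16.2% for SUM149PT and HCC38. MDA-MB-468 exceeded SUM149PT by 1.90 on the log2 scale (SE 0.308, adjusted p = 0.00131) and HCC38 by 1.43 (SE 0.308, adjusted p = 0.00431). SUM149PT and HCC38 differed by −0.46, which did not pass (95% interval −1.09 to 0.16, adjusted p = 0.353). Over the 3 lines the mean log2 fold change was 0.26 (adjusted p = 0.0956), a call that remained in 2 of the 12 fits without 1 library, those without MDA-MB-468 knock-down replicate 1 or HCC38 knock-down replicate 2. Without MDA-MB-468 knock-down replicate 2 the mean was 0.08 (adjusted p = 0.482).

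LOXL1, the member tied to elastic fibers, rose in MDA-MB-468 and fell in SUM149PT, and did not pass in HCC38. It was at 0.466 and 0.452 CPM with LNA NS and 1.06 and 0.541 CPM after knock-down in MDA-MB-468, a low level that rests on 34 and 69 counts. The ratio of the pooled normalized counts was 1.75 with a 95% counting interval of 1.14 to 2.72. The log2 fold change of 0.80 passed (SE 0.344, edgeR adjusted p = 0.0717). The call was lost without LNA NS replicate 1 (log2 fold change 0.81), LNA NS replicate 2 (0.77) or knock-down replicate 1 (0.23).

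In SUM149PT, where LOXL1 was abundant, it fell from 68.2 and 67.6 CPM to 47.6 and 42.6 CPM. The log2 fold change was −0.59 (SE 0.150, edgeR adjusted p = 0.00697), with no overlap. In HCC38 it was at 14.7 and 12.1 CPM with LNA NS and at 14.1 and 17.5 CPM after knock-down, with overlapping libraries and a log2 fold change of 0.24 (95% interval −0.10 to 0.57).

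The effect on LOXL1 also differed between lines (edgeR adjusted p = 0.00958). The fall in SUM149PT differed from the value in MDA-MB-468 by 1.39 on the log2 scale (adjusted p = 0.0280) and from that in HCC38 by −0.82 (SE 0.217, adjusted p = 0.0269). LOXL1-AS1, an antisense lncRNA that overlaps the start of LOXL1 at chr15:74200412-74220589 in GRCh37, fell in SUM149PT as well, from 24.7 and 23.1 CPM to 14.7 and 14.9 CPM (log2 fold change −0.69, edgeR adjusted p = 6.2e-04). MDA-MB-468 and HCC38 gave log2 fold changes of 0.06 and −0.20 for it. Because the strand setting is not given, its reads and those of LOXL1 cannot be told apart with certainty either.

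The start regions of LOX, LOXL1 and LOXL4 are shown so that the letters before each gene can be compared. These tested members had the largest log2 fold changes in a single line, 1.37, 0.80 and 1.62, all in MDA-MB-468. For LOXL1 that value rests on few counts, and its mean over the 3 lines was 0.15, against −0.32 for LOXL3. The regions were taken from RefSeq on GRCh38.p14, and all 4 tested members were matched. Each runs from 250 bases before to 50 after the start furthest upstream in the table, read 5′ to 3′ on the strand of its gene. LOX at chr5:122078210-122078509 has 3 starts in the table, LOXL1 at chr15:73926212-73926511 and LOXL4 at chr10:98268145-98268444 have 1 each. Capitals mark the hypoxia response core ACGTG, or CACGT where it lies on the other strand.
LOX: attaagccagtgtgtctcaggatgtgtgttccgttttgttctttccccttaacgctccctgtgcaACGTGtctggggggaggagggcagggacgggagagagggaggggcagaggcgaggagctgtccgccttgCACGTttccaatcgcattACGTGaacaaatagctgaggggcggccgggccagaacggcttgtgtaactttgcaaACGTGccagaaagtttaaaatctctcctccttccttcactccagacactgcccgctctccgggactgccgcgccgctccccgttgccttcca
LOXL1: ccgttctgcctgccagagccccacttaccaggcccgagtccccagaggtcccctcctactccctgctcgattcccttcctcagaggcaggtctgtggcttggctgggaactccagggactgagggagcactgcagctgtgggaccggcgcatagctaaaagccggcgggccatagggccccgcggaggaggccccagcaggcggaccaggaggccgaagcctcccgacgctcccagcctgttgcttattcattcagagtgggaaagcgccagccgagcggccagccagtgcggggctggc
LOXL4: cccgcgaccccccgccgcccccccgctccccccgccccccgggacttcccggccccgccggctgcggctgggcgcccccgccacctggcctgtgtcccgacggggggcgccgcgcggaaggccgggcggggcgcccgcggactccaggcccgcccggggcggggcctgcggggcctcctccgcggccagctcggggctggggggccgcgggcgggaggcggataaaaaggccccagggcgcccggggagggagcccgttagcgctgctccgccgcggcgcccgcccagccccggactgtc

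LOX held 4 copies of the core, which begin at −185, −116, −98 and −42 relative to the start. At least 1 copy was found in 21.6% of the 27305 promoters of that length, and 4 or more in 0.886%. LOXL1, LOXL3 and LOXL4 held no copy. None of the 4 held TATAAA (12.0% of promoters did), the AP-1 site TGACTCA (4.90%) or 1 of the E2F sites TTTCCCGC, TTTCGCGC, TTTGCCGC and TTTGGCGC (3.34%), on either strand. LOXL4 had the most G and C, at 85.3% of the window, against 58.0% in LOX. These matches are letters only and say nothing of binding.

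LOXL3, an oxidase with scavenger receptor domains that is needed for palate and cartilage development, was lower after knock-down in MDA-MB-468 and SUM149PT. It was at 7.98 and 7.95 CPM with LNA NS and 6.35 and 6.19 CPM after knock-down in MDA-MB-468, and at 25.3 and 25.6 CPM and then 17.9 and 16.3 CPM in SUM149PT, without overlap in either. The log2 fold change of −0.57 in SUM149PT passed (SE 0.125, edgeR adjusted p = 0.00243).

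That of −0.34 in MDA-MB-468 also passed (SE 0.136, edgeR adjusted p = 0.0517). In fits without 1 library of that line, which leave 1 library in a group, the call was lost each time. The log2 fold change then stayed between −0.37 and −0.33. In HCC38 the libraries overlapped, at 12.0 and 12.2 CPM with LNA NS and 10.5 and 13 CPM after knock-down, and the log2 fold change was −0.04 (95% interval −0.32 to 0.23). LOXL3 fell on average over the 3 lines, with a mean log2 fold change of −0.32 (SE 0.0751, edgeR adjusted p = 0.00207), a contrast in which 54.8% of all genes passed and 26.5% fell. The difference between lines stood at an adjusted p of 0.0966 and passed in 1 of the 12 fits without 1 library, that without HCC38 knock-down replicate 1, while the others gave up to 0.355.

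LOXL4, the least expressed member, was higher after knock-down in every line. In MDA-MB-468 it had 6 and 2 counts with LNA NS and 15 and 14 counts after knock-down, or 0.165 and 0.0532 CPM and then 0.345 and 0.330 CPM. The ratio of the pooled normalized counts was 3.12 with a 95% counting interval of 1.39 to 7.91, and the log2 fold change was 1.62 (SE 0.556, edgeR adjusted p = 0.0270). It was 2.59 without LNA NS replicate 1, and without LNA NS replicate 2 it was 1.02 and did not pass (adjusted p = 0.225).

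In SUM149PT LOXL4 rose from 21 and 13 counts (0.562 and 0.423 CPM) to 75 and 39 counts (1.39 and 1.16 CPM), a log2 fold change of 1.37 (SE 0.378, edgeR adjusted p = 0.0117). In HCC38 it had 50 and 52 counts for LNA NS, then 79 and 73 after knock-down, or 1.09 and 1.06 CPM and then 1.45 and 1.97 CPM. There the libraries did not overlap, but the log2 fold change of 0.65 did not pass (95% interval −0.05 to 1.35, adjusted p = 0.166). The mean over the 3 lines was 1.21 (SE 0.249, edgeR adjusted p = 7.3e-04), in a contrast where 28.4% of all genes passed as higher by any amount. A difference between lines was not detectable at this depth (adjusted p = 0.391), with MDA-MB-468 above HCC38 by 0.96 in a wide 95% interval of −0.42 to 2.35.

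Other neighbors of these members were measured as well. SRFBP1, which lies across from LOX on the other strand and encodes a cofactor of serum response factor, fell in MDA-MB-468 (log2 fold change −0.68) and HCC38 (−0.66), where LOX rose and did not pass. Of the pair of genes that overlap LOXL3 on the other strand, HTRA2, a mitochondrial protease, had log2 fold changes of −0.36, −0.33 and 0.00 in MDA-MB-468, SUM149PT and HCC38, while DOK1, an adaptor of tyrosine kinases, had 0.89, −0.14 and 0.52. M1AP, a meiosis gene 2.19 kb upstream of LOXL3, fell in MDA-MB-468 by 1.90 and in HCC38 by 0.77 on the log2 scale. PYROXD2, 115 kb upstream of LOXL4, fell in each line (−0.93, −0.72 and −0.72), whereas LOXL4 was higher in each. CD276, an immune checkpoint ligand 211 kb upstream of LOXL1, did not pass in any line, nor did the RNA gene RN7SL689P, 944 kb upstream of LOX.

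Across the 12 libraries the members did not share 1 profile. Pearson's r of log2(CPM + 0.5) was 0.94 between LOXL1 and LOXL3, 0.79 between LOX and LOXL1 and 0.66 between LOX and LOXL3. LOXL2 had r of −0.36 with LOX, −0.03 with LOXL1, 0.22 with LOXL3 and −0.36 with LOXL4. These values describe 12 libraries from 3 lines, so they mix differences between lines with those between treatments.

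Among 14833 genes with a mean of at least 1 CPM, the profiles most like LOX were those of SLBP (r = 0.937), a histone mRNA binding protein, DDN (0.936) and COL7A1 (0.917), the anchoring fibril collagen. For LOXL1 they were GAPDHP35 (0.996), a GAPDH pseudogene whose reads can be shared with its parent, FMNL1 (0.996), a formin, and THBD (0.995), thrombomodulin. For LOXL2 they were MAP2K2 (0.982), a kinase of the MAPK cascade, INO80E (0.974), a chromatin remodeler subunit, and TTC38 (0.973). LOXL3 was closest to TGFB1 (0.993), the ligand TGF-β1, ABHD14B (0.991) and PEX11G (0.987), a peroxisomal gene. LOXL4 was closest to ENSG00000263235 (0.981), SERPINI1 (0.971), neuroserpin, and FLNC (0.971), a filamin.

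The most LOXL2-like gene, MAP2K2, had smaller changes than LOXL2, with log2 fold changes of −0.98 (MDA-MB-468), −0.48 (SUM149PT) and −0.16 (HCC38). TTC38 had −1.84, −0.96 and −0.63. SERPINI1 and FLNC had 2.69 and 2.76 in MDA-MB-468, 1.48 and 1.73 in SUM149PT and 1.00 and 0.97 in HCC38, larger than those of LOXL4 in every line.

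The genes around the family were read in 3 lists. The first holds the matrix proteins that lysyl oxidases cross-link or that scaffold them, of which 35 of 36 were tested. In MDA-MB-468 5 were higher and 11 lower, in SUM149PT 1 was higher and 16 lower, and in HCC38 3 were higher and 10 lower. In MDA-MB-468 the 16 that passed are 45.7% of the list, below the 50.6% of all genes, and in SUM149PT and HCC38 48.6% and 37.1% of the list passed, against 38% and 34%. The list's median log2 fold change was −0.03, −0.34 and −0.19, against 0.00, 0.03 and 0.01 for all genes. Of all genes 24.9% were higher and 25.7% lower in MDA-MB-468, 20% and 18% in SUM149PT, and 15.5% and 18.4% in HCC38. The number higher was 3 in MDA-MB-468 without its LNA NS replicate 2, 2 in SUM149PT without its LNA NS replicate 1 and 0 without its knock-down replicate 1. In HCC38 it was 0 without LNA NS replicate 1 and 1 without knock-down replicate 1 or either LNA NS library of MDA-MB-468. The effect differed between lines for 18 of the 35, against 32.4% of all genes.

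The basement membrane genes COL4A2 and COL4A1, which encode the collagen IV chains that LOXL2 is known to cross-link, fell in each line. COL4A2 had log2 fold changes of −1.75 (MDA-MB-468), −2.11 (SUM149PT) and −1.19 (HCC38) (mean −1.68, edgeR adjusted p = 1.5e-10), and COL4A1 had −1.69, −1.0 and −0.74. COL18A1, another basement membrane collagen, fell by 1.80, 1.08 and 0.56 on the log2 scale. LTBP2, a microfibril protein, fell in each line (−2.06, −1.74 and −1.68), and TNC, tenascin C, had −2.21, −1.15 and −1.32.

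The change of some matrix genes differed between lines. COL7A1 rose from 7.92 ± 0.681 to 29.6 ± 1.45 CPM (n = 2 each) in MDA-MB-468, a log2 fold change of 1.90, and fell in SUM149PT at −0.39 (edgeR adjusted p = 6.9e-06 for the difference between lines). COL12A1, a collagen on the surface of fibrils, rose in MDA-MB-468 (1.13) and did not pass in SUM149PT (−0.09) or HCC38 (−0.25). LTBP1, which holds latent TGF-β in the matrix, fell in each line, most in MDA-MB-468 (−2.22, −1.04 and −0.76). The fibrillar collagen COL1A1 fell in SUM149PT at −0.34 and did not pass in MDA-MB-468 or HCC38, and elastin ELN passed in no line. These last 2 fall outside the rule for named genes and were picked, after their values were seen, as the textbook substrates.

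**Figure D4:**
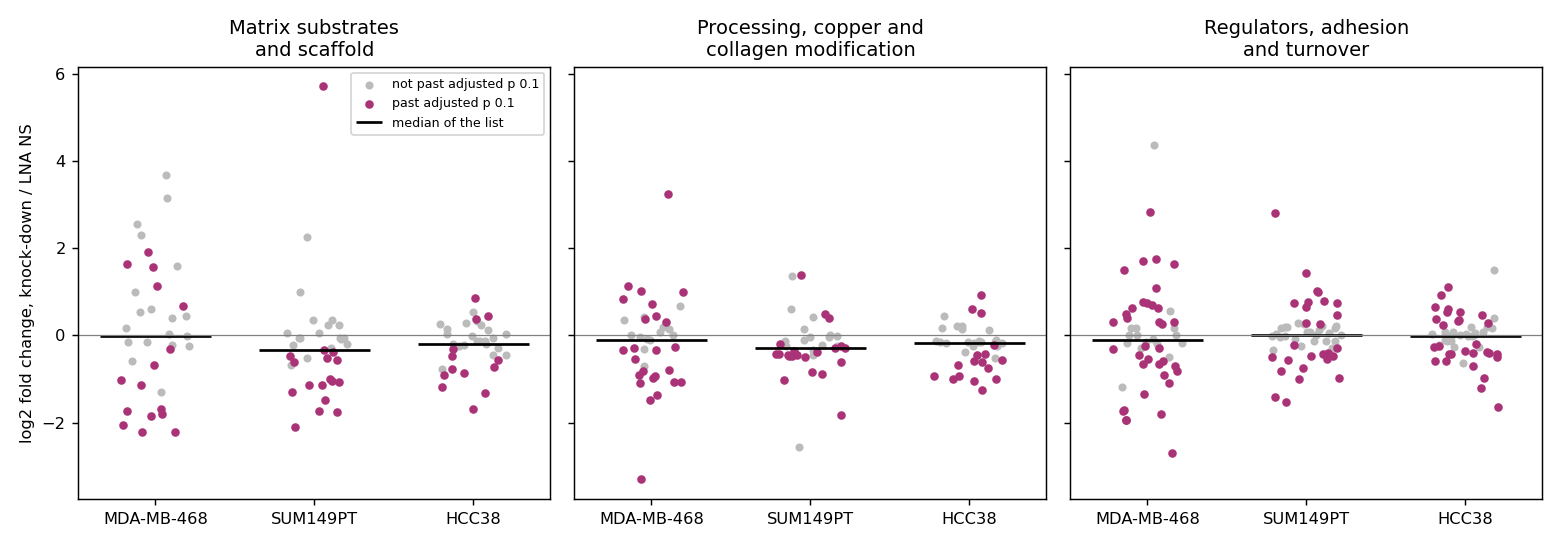
Log2 fold change of knock-down against LNA NS for each tested gene of the 3 lists, by cell line, with genes past an adjusted p of 0.1 in purple, the others in grey and the list median as a black bar. The median of the matrix list lies at −0.03 (MDA-MB-468), −0.34 (SUM149PT) and −0.19 (HCC38).

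The second list holds 38 genes for proenzyme cutting, copper supply and collagen modification, all tested. In MDA-MB-468 9 were higher and 16 lower (24.9% and 25.7% of all genes), in SUM149PT 3 and 19 (20% and 18% of all genes), and in HCC38 3 and 14 (15.5% and 18.4% of all genes), with medians of −0.10, −0.29 and −0.18. The number higher was 5 in MDA-MB-468 without LNA NS replicate 1 and 4 without knock-down replicate 2, and 1 in HCC38 without either LNA NS library or knock-down replicate 1. The number lower was 12 in SUM149PT without knock-down replicate 2 and 9 in HCC38 without replicate 2 of either treatment. The effect differed between lines for 19 of the 38, against 32.4% of all genes, and for 12 without either LNA NS library of MDA-MB-468.

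HTRA1, a secreted serine protease of the matrix, had the largest fall in MDA-MB-468 of the genes named from this list, with log2 fold changes of −3.30, −1.82 and −1.26. It was low in MDA-MB-468, going from 2.21 ± 0.870 to 0.221 ± 0.0129 CPM, and abundant in SUM149PT, going from 213 ± 7.52 to 60.4 ± 8.21 CPM (n = 2 each).

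KDELR2, a receptor that returns proteins to the endoplasmic reticulum, fell by 1.08, 0.85 and 1.01 on the log2 scale, and P3H2, a prolyl hydroxylase of collagen, by 1.36, 0.48 and 0.94. CRTAP, a partner of that enzyme class, fell in MDA-MB-468 (−0.92) and SUM149PT (−0.50). FURIN, the proprotein convertase that activates BMP1, rose in MDA-MB-468 (0.82) and HCC38 (0.50). PLOD3, a lysyl hydroxylase, fell in MDA-MB-468 (−1.08) and SUM149PT (−0.45) and had 0.12 in HCC38. SERPINH1, the collagen chaperone HSP47, rose in MDA-MB-468 (0.44) and fell in SUM149PT (−0.19), and the copper importer SLC31A1 fell in HCC38 (−0.59).

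Some direct partners of these enzymes and their relatives lie outside the naming rule, were picked after their values were seen, and did not all move one way. BMP1, the protease that cuts the LOX proenzyme, fell in MDA-MB-468 (log2 fold change −0.97) and SUM149PT (−0.46) and had −0.17 in HCC38. The copper pump ATP7A, which loads copper in the Golgi, fell in MDA-MB-468 (−0.93) and HCC38 (−1.01) and had −0.22 in SUM149PT, and the copper chaperone ATOX1 had −0.34, −0.29 and −0.25, the first and second past the test. SLC31A2, a relative of the copper importer, rose in MDA-MB-468 (1.00) and HCC38 (0.92) and had 0.42 in SUM149PT. TLL2, a protease of the BMP1 family, passed as higher in MDA-MB-468 on very few reads, and TLL1 of the same family fell in SUM149PT (−0.62).

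The third list holds 52 genes of TGF-β, hypoxia, epithelial-mesenchymal transition, YAP, adhesion and matrix turnover, all tested. Its genes moved in both directions, with 17 higher and 19 lower in MDA-MB-468, 12 and 15 in SUM149PT and 12 and 17 in HCC38 (50.6%, 38% and 34% of all genes passed in these lines), and medians of −0.12, 0.00 and −0.01. The number lower in HCC38 was 10 without its LNA NS replicate 2 and 8 without its knock-down replicate 2. The effect differed between lines for 28 of the 52, against 32.4% of all genes.

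TEAD4, a DNA-binding partner of YAP, fell by 1.93, 1.42 and 1.64 on the log2 scale in the 3 lines (mean edgeR adjusted p = 2.9e-12). WWTR1, the YAP relative TAZ, fell by 0.65, 0.48 and 0.98 on the log2 scale. PTK2, focal adhesion kinase, fell by 1.73, 1.00 and 0.43. TWIST2, a factor of mesenchymal transition, had −1.70, −0.98 and −1.21. Other genes of that transition lie outside the naming rule, were picked after their values were seen, and did not all fall. In MDA-MB-468 TWIST1 (2.82), ZEB1 (1.74), SNAI1 (1.63) and VIM (1.08) rose, and SNAI2, ZEB2 and CDH2 did not pass. In SUM149PT ZEB1 (0.76) and VIM (0.78) rose, while TWIST1 (−0.55) and SNAI2 (−0.81) fell. In HCC38 TWIST1 (1.11) and SNAI1 (0.53) rose and CDH2 (−0.44) fell.

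The hypoxia genes were not uniform. EPAS1, which encodes HIF-2α, fell from 217 ± 21.7 to 56.7 ± 6.69 CPM in MDA-MB-468 and from 343 ± 43.1 to 120 ± 12.0 CPM in SUM149PT (n = 2 each; log2 fold changes −1.94 and −1.52), and had −0.12 in HCC38. NDRG1, a hypoxia-induced gene, fell in MDA-MB-468 (−1.81) and HCC38 (−0.36), and EGLN3, a HIF prolyl hydroxylase, fell in MDA-MB-468 (−0.90) and rose in SUM149PT (1.02). In MDA-MB-468, where LOX rose, more of the hypoxia genes of this list that passed fell than rose. Besides those named, CA9 (−1.35), HIF1A (−0.71), PDK1 (−0.65) and SLC2A1 (−0.54) fell there, and ADM (0.62) and EGLN1 (0.26) rose. ARNT, VEGFA, BNIP3 and ANKRD37 did not pass in that line. These added genes lie outside the naming rule and were picked after their values were seen. The part of hypoxia signaling in the LOX values was not tested.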

How the data were processed

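Poly-A RNA of 12 libraries was sequenced with a strand-specific kit. For each library the authors deposited raw counts, as whole numbers by Ensembl gene. The study's methods name STAR and GRCh37 (hg19), whereas the submitters' processing notes list TopHat2 2.0.13 with HTSeq 0.6.0, so the aligner of these counts is uncertain. The annotation release and the strand setting of the counting are not given in the sources used here. Summary lines that name no gene held 40.8% to 53.7% of all counts per library and were left out. Replicate libraries differed by far more than sampling noise (chi-square per degree of freedom 15.8 to 27.9).

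The 5 members, the 3 gene lists, the naming rule and the alternatives were chosen with earlier results of these data known. Genes passed filterByExpr (minimum count 10, minimum total 15), libraries were scaled by TMM, and edgeR 4.0.16 in R 4.3.3 fitted a mean for each of the 6 groups over all 12 libraries, with 6 residual degrees of freedom. The contrasts tested were those of knock-down and LNA NS libraries within a line, their mean, their differences, and line against line in LNA NS libraries. Genes were called at a Benjamini-Hochberg adjusted p under 0.1 over all 21325 tested genes, and intervals are those of the fit. Named were all members, their overlapping and nearest upstream genes, up to 5 genes per list by the mean contrast, up to 3 more by the difference between lines, and the 3 genes most correlated with each member. Some genes that this rule names are not reported here. DESeq2 1.42.0, other scalings and filters, a replicate block, each line fitted alone and fits without each library in turn were alternatives. Levels per length are CPM divided by the exonic length in GENCODE on GRCh37, which matched 55665 of 63677 genes. Counting intervals cover counting error only. The pipeline was tested on simulated data. Python 3.11.15 with pandas 2.3.3 and scipy 1.17.1 made the tables.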

Additional observations from a re-analysis of the deposited data

Results flagged for a closer look

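The effect of the knock-down differed between the 3 lines for 3 of the 4 tested members by the F test of the interaction in edgeR. For LOX the adjusted p was 0.00142, with log2 fold changes of 1.37 (MDA-MB-468), −0.53 (SUM149PT) and −0.06 (HCC38), and for LOXL1 it was 0.00958, with 0.80, −0.59 and 0.24. For LOXL3 it was 0.0966, with −0.34, −0.57 and −0.04. The LOX and LOXL1 values passed in each fit without 1 library (adjusted p up to 0.0112 and 0.0371), whereas the LOXL3 value passed in 1 of those 12 fits, without HCC38 knock-down replicate 1 (adjusted p = 0.0545). With 2 libraries per group no library could be examined as an outlier within its group. LOXL2 is left out because it was chosen for this contrast.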

How the results depend on the processing

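The replicate numbers do not pair the libraries. Deviations of same-numbered libraries correlated at −0.0052 (MDA-MB-468), 0.0971 (SUM149PT) and −0.118 (HCC38), and the labels tie no number to a day or batch. With the replicate number as a block, 4, 4 and 0 of the 4 tested members passed in MDA-MB-468, SUM149PT and HCC38 and 3 in the mean, as without it, and all genes called went from 10783, 8101 and 7243 to 10309, 7392 and 6413. The difference between lines then passed for 2 members in place of 3, since LOXL3 had an adjusted p of 0.161. With the pairing crossed in HCC38, an alternative added after the data were seen, 11194, 8595 and 7907 genes passed in the 3 lines.

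Upper-quartile factors moved the median log2 fold change of all genes to 0.14, 0.09 and 0.13 in MDA-MB-468, SUM149PT and HCC38, and the share of called genes that were higher from 49.2%, 52.6% and 45.8% to 59.5%, 59.6% and 63.4% (in the mean contrast from 51.8% to 62.9%). LOXL2 was then at −4.09 (MDA-MB-468), −0.68 (HCC38) and −2.24 (mean). LOX turned to 0.0632 and LOXL3 to 0.0845 in HCC38, and 2 members passed there. LOX in SUM149PT (adjusted p = 0.102) and LOXL3 in MDA-MB-468 (0.241) no longer passed. The list genes higher in HCC38 became 7 for matrix and 8 for processing. Among at least 10 counts in every library LOXL3 was 0.0111 in HCC38, and LOXL4 has no value since it failed that filter. Without any filter LOXL3 did not pass in MDA-MB-468 (0.123) or between lines (0.291). Fitted alone, LOXL1 in MDA-MB-468 did not pass (0.179), and 1 member passed in HCC38.

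Without 1 library, the members called in MDA-MB-468 ran from 1 to 4. LOX in HCC38 ran from −0.234 to 0.0679, LOXL3 there from −0.202 to 0.0881, the mean of LOXL1 from −0.0432 to 0.282 and that of CD276 from −0.00337 to 0.0553, the signs turning without HCC38 knock-down replicate 2 (LOX) or 1 (LOXL3) and without MDA-MB-468 knock-down replicate 1 (LOXL1, CD276). The lone library left in such a group is assumed to vary like the others. LOXL2 stayed between −4.28 and −4.19, −2.08 and −1.93, and −0.87 and −0.74 in the 3 lines. LOXL4 in every line and LOX and LOXL1 in MDA-MB-468 kept their sign under every alternative run. Over all alternatives, including those named here and in the report, 67 values of single genes lost and 7 gained a call, and 33 counts of list genes moved by over 1.5 times. Counts of under 10 per library limit LOXL4 in MDA-MB-468. The causes of these shifts were not tested.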
